A study of Mus musculus with 11 samples.

Results

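The neural POU genes of classes 3 and 4 are 7 coding genes: Pou3f1, Pou3f2, Pou3f3 and Pou3f4 of class 3, and Pou4f1, Pou4f2 and Pou4f3 of class 4. They were chosen by family name from 21779 coding genes of the RefSeq annotation, with earlier results of these data known, and all 7 were found there. Peaks of Smchd1 were then sought in each gene, within 5 kb of it and within 50 kb of it. Smchd1, a chromatin protein related to the SMC proteins, takes part in silencing the inactive X chromosome and some autosomal gene clusters. In the knock-in cells, every Smchd1 protein carried GFP, and an antibody to GFP pulled down the DNA bound to it.

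All 11 libraries came from C57BL/6 neural stem cells, grown from E14.5 embryos and passaged up to 20 times. In the sonication experiment, which asked about the inactive X, chromatin was broken by 30 min of sonication. All 6 of its libraries were female: 2 from cells homozygous for the Smchd1 GFP allele, 2 from wild-type cells and 2 of input DNA (whole cell extract). In the MNase experiment, which asked about the autosomes, chromatin was cut with micrococcal nuclease; 1 male and 1 female library were homozygous for the GFP allele. They were set against wild-type cells of both sexes, 1 library each, and 1 library of female whole cell extract. Both genotypes were pulled down with the GFP antibody, so the wild-type libraries show what the antibody brings down without a tag. For whole cell extract the labels give no genotype. Each experiment was deposited as 1 list of peak positions, with 2840 peaks for MNase and 2196 for sonication. No height, read count or value per library accompanied a peak, so depth and the spread between replicates were unknown, and none of the counts below has a test. The identity of the cells rests on the labels, since no RNA was measured.

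POU factors bind DNA through a POU-specific domain joined to a homeodomain, and many recognise an octamer sequence. Class 3 factors act in neural progenitors, glia and the inner ear, often beside Sox proteins. Class 4 factors act later, in sensory neurons, retinal ganglion cells and hair cells, often beside LIM homeodomain proteins. Genes of such lineage factors are commonly held silent by Polycomb proteins in cells that do not use them.

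MNase peaks were found at 3 of the 7 genes, and the genes differed widely from each other. Pou4f1 carried a peak inside the gene, Pou3f3 had 4 peaks on both sides of the gene, and Pou3f2 had 1 peak upstream. Pou3f1, Pou3f4, Pou4f2 and Pou4f3 had none within 100 kb, as was true of most coding genes: 17.6% of all had one. In counts, 1 of 7 genes (14.3%) had an MNase peak in the gene, where 4.13% of all coding genes did. Within 5 kb the count was 2 of 7 (28.6%) against 5.28% of coding genes, and within 50 kb it was 3 of 7 (42.9%) against 11.3%. The neural POU genes are short, from 1497 bp for Pou4f3 to 6444 bp for Pou4f1, where the median coding gene spans 17.2 kb. Among coding genes of at most 10 kb, 1.68% had an MNase peak in the gene, 3.13% within 5 kb and 9.88% within 50 kb. The share of the 7 genes thus lay above the share of all coding genes in every window of the MNase list. That result rests on 3 genes, and each wider window counts the peaks of the narrower ones again. With 7 genes, 1 gene alone makes 14.3%.

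**Figure D1:**
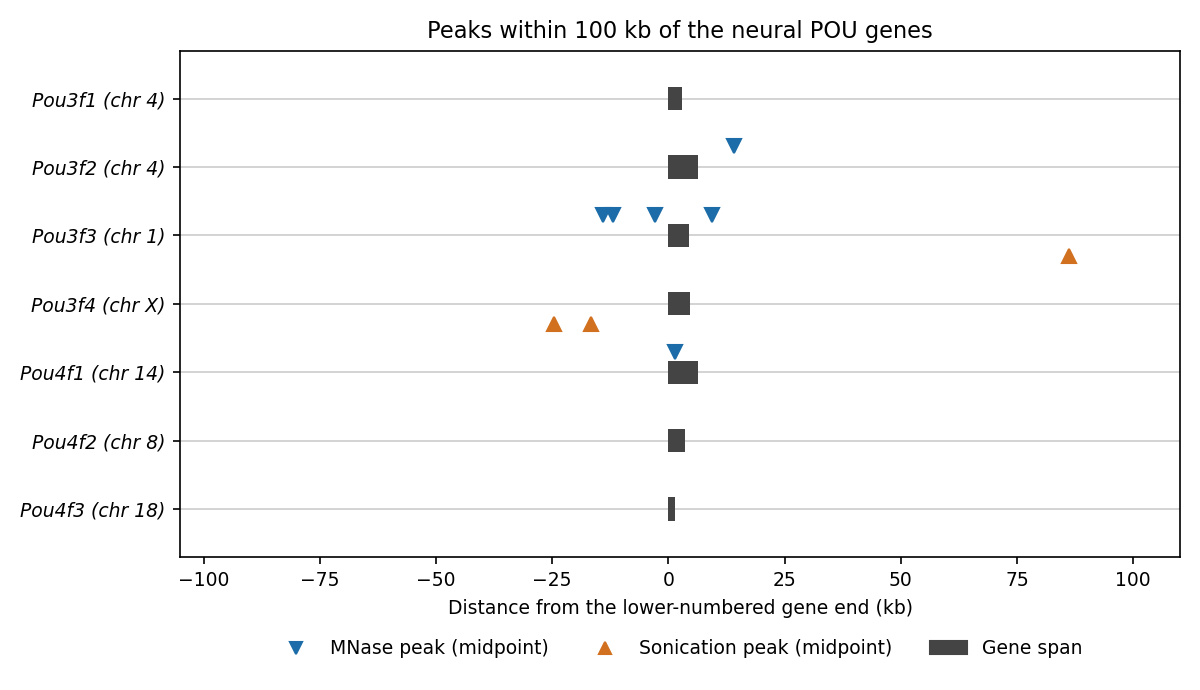
Map of peaks within 100 kb of the 7 neural POU genes, 1 gene per row, with distance from the lower-numbered end of the gene on the x axis (kb). Dark boxes are gene spans, blue triangles above the line are MNase peak midpoints and orange triangles below it are sonication peak midpoints. The 6 MNase peaks lie at Pou3f2, Pou3f3 and Pou4f1, all within 20 kb of the gene, and the 3 sonication peaks lie at Pou3f3 and Pou3f4.

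Pou4f1 encodes a factor needed for the development and survival of sensory neurons. The gene lies on the minus strand at chr14:104461675-104468118 in mm10, with its start site at 104467999. Its MNase peak ran from 104462551 to 104463450 and was 900 bp wide. It lay wholly within the gene span, began 877 bases in from the lower-numbered end and came no closer than 4549 bp to the start site, so it lay in the part of the gene away from the promoter. No other MNase peak was found within 500 kb of Pou4f1, and the median coding gene also had 1 in that window. A width of 900 bp or more was reached by 420 of the 2840 MNase peaks (14.8%), and the median width was 450 bp. It was the widest of the 6 MNase peaks counted for the neural POU genes. The peak overlapped no other annotated gene: the long non-coding gene D130079A08Rik ended 2339 bp from Pou4f1 and held none, and the nearest coding gene, Obi1, lay 9416 bp away. The nearest sonication peak to Pou4f1 was 282 kb away.

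Pou3f3 encodes a factor of cortical progenitors and neurons and of the kidney. It lies on the plus strand at chr1:42695768-42700210 and had 4 MNase peaks within 20 kb. On the upstream side, peaks of 300 bp each began at 42681601, 42683701 and 42692701, which placed them 13868, 11768 and 2768 bp from the gene. On the downstream side, 1 peak of 450 bp ran from 42705001 to 42705450, at 4791 bp. The gene itself held 0, so the peaks flanked Pou3f3 without touching it. Of all coding genes, 155 (0.712%) had 4 or more MNase peaks within 50 kb. All 3 upstream peaks had the smallest width of the list, and with such peaks left out Pou3f3 had 1. Other transcripts share these positions. All 3 upstream peaks lay in the span of Pantr1, a long non-coding gene beside Pou3f3, and Gm46091, another non-coding gene that spans Pou3f3 itself, overlapped the peak at 42692701 and the downstream one. Pantr2 and 2900092D14Rik, also non-coding neighbours, overlapped 0 peaks, and the downstream peak lay between them. Position alone does not assign these peaks to Pou3f3 or to its non-coding neighbours. No other coding gene lay nearby: the nearest, Mrps9, was 151 kb away.

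Pou3f2, a factor of neural progenitors and of upper-layer cortical and hypothalamic neurons, lies on the minus strand at chr4:22482095-22488366. It had 1 MNase peak of 300 bp, the smallest width in the list, from 22496101 to 22496400. The peak was upstream of the gene, 7735 bp from its start site, and so outside the 5 kb window. It overlapped no annotated gene, and the non-coding gene Gm30731, 2975 bp away, was nearer to it than Pou3f2. No other MNase peak lay within 500 kb, where the median coding gene also had 1. The nearest sonication peak was 571 kb away.

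The promoters of the 3 genes with an MNase peak within 50 kb and of 2 without are shown here to let their base composition be compared, since no peak overlapped any of them. Each line gives the bases before the start of the gene, up to 250, 5′ to 3′ on the coding strand, from the RefSeq table for GRCm38.p6, the assembly that mm10 names. Capitals mark CG dinucleotides. Pou4f1 is cut to the 131 bases that precede the annotated span. The table gave a window for 5 of the 7 genes, and not for Pou3f1 and Pou4f3.
Pou4f1, chr14:104468119-104468249, minus strand: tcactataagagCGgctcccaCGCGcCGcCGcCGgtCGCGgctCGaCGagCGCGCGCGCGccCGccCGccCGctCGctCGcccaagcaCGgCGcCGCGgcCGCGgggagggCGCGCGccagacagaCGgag
Pou3f3, chr1:42695518-42695767, plus strand: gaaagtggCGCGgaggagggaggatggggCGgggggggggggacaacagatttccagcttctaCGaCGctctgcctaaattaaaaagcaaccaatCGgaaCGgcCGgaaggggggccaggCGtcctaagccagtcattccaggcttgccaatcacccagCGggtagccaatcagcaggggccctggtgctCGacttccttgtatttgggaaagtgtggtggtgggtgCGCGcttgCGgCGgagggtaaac
Pou3f2, chr4:22488367-22488616, minus strand: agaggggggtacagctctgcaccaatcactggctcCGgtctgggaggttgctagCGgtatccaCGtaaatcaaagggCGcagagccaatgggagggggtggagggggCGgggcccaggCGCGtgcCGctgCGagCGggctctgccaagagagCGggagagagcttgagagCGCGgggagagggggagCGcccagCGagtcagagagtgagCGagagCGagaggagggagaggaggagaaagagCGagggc
Pou4f2, chr8:78436648-78436897, minus strand: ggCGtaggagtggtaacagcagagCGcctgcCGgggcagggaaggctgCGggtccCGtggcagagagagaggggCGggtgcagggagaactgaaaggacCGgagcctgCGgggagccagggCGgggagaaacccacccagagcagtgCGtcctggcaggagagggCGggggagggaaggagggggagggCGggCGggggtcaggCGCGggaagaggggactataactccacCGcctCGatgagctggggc
Pou3f4, chrX:110814129-110814378, plus strand: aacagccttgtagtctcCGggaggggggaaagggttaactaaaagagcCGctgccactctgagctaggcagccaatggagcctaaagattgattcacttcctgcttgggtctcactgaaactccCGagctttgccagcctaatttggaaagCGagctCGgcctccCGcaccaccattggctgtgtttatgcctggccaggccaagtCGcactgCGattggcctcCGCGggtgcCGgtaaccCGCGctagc

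Pou4f1 stood apart from the other promoters in CG content. In the full window of 300 bases, from 250 before to 50 after the start site, Pou4f1 held 57 CG dinucleotides and was 78.3% G or C. Only 38 of 21263 such windows of coding genes (0.179%) held 57 or more, where the median held 13 and was 56.3% G or C. Pou3f2 had 24, Pou3f3 and Pou4f2 had 18 each and Pou3f4 had 15, which placed them in the broad middle of the distribution. The 3 genes with an MNase peak within 50 kb thus held 57, 24 and 18 CG, and the others with a window held 18 and 15. Of all coding start sites, 3.81% with 15 or more CG had an MNase peak within 5 kb and 2.04% with fewer did. In the sonication list the order was reversed, at 0.432% and 0.646%. All 5 windows here hold 15 or more CG, so this split does not part the neural POU genes. The core of the octamer, ATTTGCA, was searched on both strands and counted 0 times in each of the 5 windows, and 3.74% of coding-gene windows held it.

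**Figure D2:**
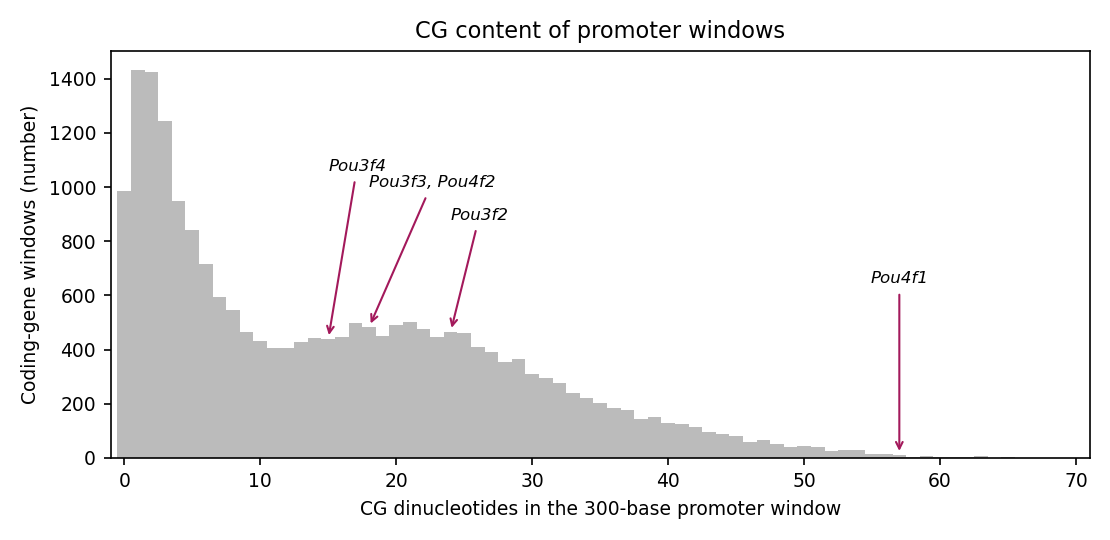
Number of CG dinucleotides in the promoter window of 300 bases (x axis) against the number of coding-gene windows with that many (y axis, grey bars), with arrows at 5 neural POU genes. Pou4f1 sits at 57 in the sparse upper tail, and Pou3f4, Pou3f3, Pou4f2 and Pou3f2 sit between 15 and 24.

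The class 4 genes other than Pou4f1 had no MNase peak within 100 kb, where 17.6% of all coding genes had one. Pou4f2, needed for retinal ganglion cells, lies at chr8:78433009-78436647, and its nearest MNase peak was 828 kb away. Pou4f3, a factor of the hair cells of the inner ear, lies at chr18:42394597-42396093, and its nearest MNase peak was 343 kb away, where the median coding gene was 462 kb from one. By class, 1 of 3 class 4 genes and 1 of 4 class 3 genes had an MNase peak within 5 kb, where 5.28% of all coding genes did. The classes could thus not be told apart by their counts. Within 50 kb the counts were 1 of 3 class 4 genes and 2 of 4 class 3 genes, against 11.3% of all coding genes.

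Pou3f1, a factor of Schwann cells and of early neural and epidermal cells, lies at chr4:124657646-124660655 among more coding genes than the other 6. It had 17 coding genes within 500 kb, where the others had 1 to 9 and the median coding gene had 16. Its nearest MNase peak was 206 kb away and its nearest sonication peak 1.15 Mb away. Within the same 500 kb it had 1 MNase peak, which was also the median of all coding genes. Pou3f2, Pou4f1 and Pou4f3 had 1 as well, and Pou4f1 had 1 coding neighbour.

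Pou3f4 was the only neural POU gene with a sonication peak within 50 kb. The gene, which in mouse and human is needed for hearing, lies on the X at chrX:110814379-110819108, on the plus strand. It had 2 sonication peaks of 300 bp each, from 110789701 to 110790000 and from 110797501 to 110797800. Both were upstream, 24379 and 16579 bp from the start site, and no annotated gene lay closer to them. The gene itself and the 10 kb around it held 0. In the whole sonication list, 66.6% of peaks had this width of 300 bp.

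On the X, sonication peaks near a gene are common. Pou3f4 lies in a broad domain of the authors' domain list, from 94985001 to 124630000, 15.8 Mb from its lower-numbered end and 13.8 Mb from the other. That domain held 159 of the 549 sonication peaks on the X, or 5.36 per Mb. Within 50 kb, 47.3% of the 146 coding genes in the domain and 32.8% of the 963 coding genes of the X had a sonication peak. At least 2 peaks within 50 kb, as at Pou3f4, were found at 9.24% of the coding genes of the X and 1.24% of all coding genes. Within 500 kb, Pou3f4 had 5 sonication peaks, where the coding genes of the domain had a median of 6 and those of the whole X a median of 3 and an upper quartile of 4. Its count was thus above the upper quartile of the X and below the median of its domain. No domain held any of the other 6 genes, since the domains lie on chromosomes 12, 13, X and Y and these genes on others. In the MNase list, the X as a whole was nearly empty: 0.935% of its coding genes had a peak within 50 kb, and the nearest to Pou3f4 was 11.0 Mb away.

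The sonication list held 0 peaks in or within 5 kb of the 7 genes, where 2.92% of coding genes had a peak in the gene and 3.38% had one within 5 kb. Among coding genes of at most 10 kb the shares were 0.356% and 0.878%. Within 50 kb the count was 1 of 7 (14.3%) against 7.84% of coding genes, and with 7 genes such counts lie close to the background. No autosomal neural POU gene had a sonication peak within 50 kb, where 6.77% of autosomal coding genes did. The closest was at Pou3f3, a peak of 600 bp from 42781651 to 42782250, 81.4 kb downstream of the gene. Pou4f1 and Pou4f2 were 282 and 309 kb from a sonication peak, and Pou4f3 was 1.61 Mb from one.

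Overlap between the lists was rare over the whole lists. Of the 6 MNase and 2 sonication peaks counted within 50 kb, 0 overlapped a peak of the other list. Over the whole lists, 47 of 2840 MNase peaks (1.65%) and 49 of 2196 sonication peaks (2.23%) did, so 0 of so few peaks is near the background. Pou3f3 was the only neural POU gene with a peak of each list within 100 kb, which 2.98% of coding genes had, and these lay 76.2 kb apart at their closest. The experiments differed in fragmentation and in the sex of the cells at once, and these cannot be told apart.

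**Figure D3:**
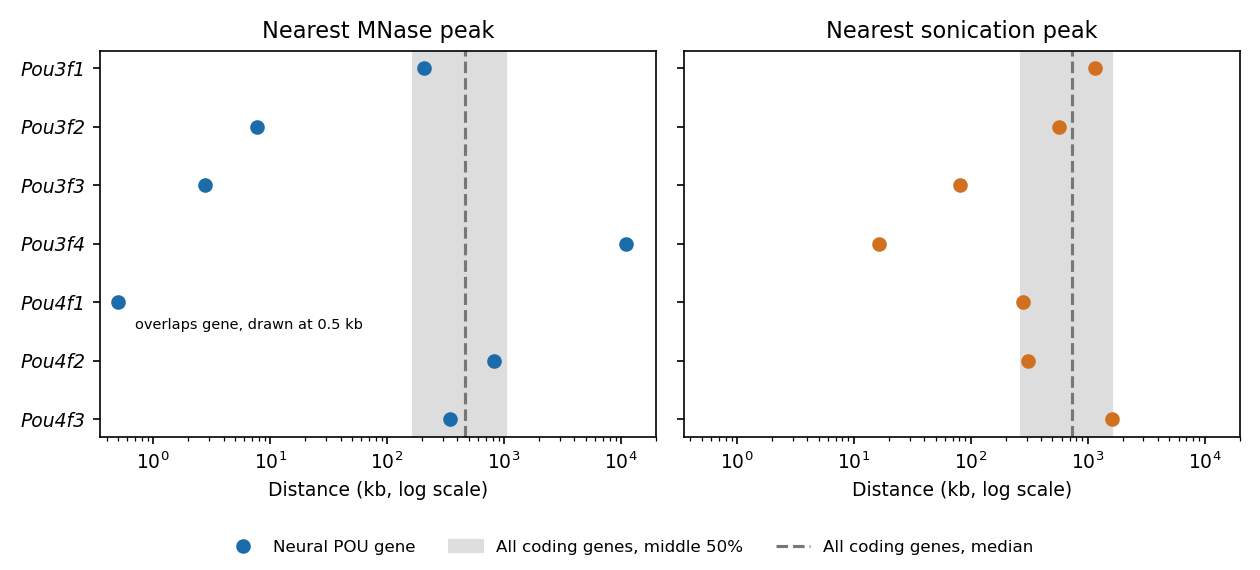
Distance from each neural POU gene to its nearest MNase peak (left) and sonication peak (right), in kb on a log axis. Points are genes, the grey band spans the middle 50% of all coding genes and the dashed line is their median (462 kb for MNase, 741 kb for sonication). Pou4f1, Pou3f3 and Pou3f2 lie far left of the band in the MNase list, and Pou3f4 and Pou3f3 lie left of it in the sonication list.

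Distance to the nearest peak put the genes in a different order in each list. In the MNase list the order was Pou4f1 (overlapping), Pou3f3 (2.77 kb), Pou3f2 (7.74 kb), Pou3f1 (206 kb), Pou4f3 (343 kb), Pou4f2 (828 kb) and Pou3f4 (11.0 Mb). The neural POU genes had a median of 206 kb and all coding genes 462 kb. In the sonication list the order was Pou3f4 (16.6 kb), Pou3f3 (81.4 kb), Pou4f1 (282 kb), Pou4f2 (309 kb), Pou3f2 (571 kb), Pou3f1 (1.15 Mb) and Pou4f3 (1.61 Mb). There the median was 309 kb for the neural POU genes and 741 kb for all coding genes. Without a value per library, it is not known which neighbours in these orders differ.

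**Figure D4:**
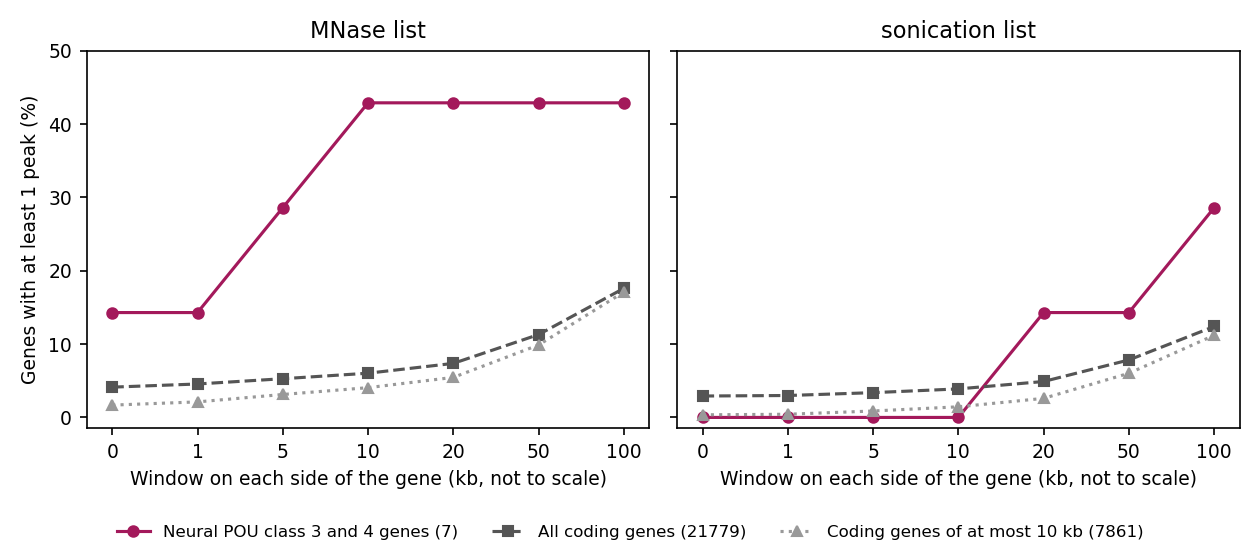
Share of genes with at least 1 peak (y axis, %) by the window counted on each side of the gene (x axis, kb, categories not to scale), for the 7 neural POU genes, all coding genes and coding genes of at most 10 kb. In the MNase list (left) the neural POU genes reach 42.9% at 10 kb and stay there, and in the sonication list (right) they stay at 0 up to 10 kb.

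Within 5 kb, where 5.28% of all coding genes had an MNase peak, 1 of the 7 POU genes examined outside classes 3 and 4 had one. This was Pou2f2, a B-cell factor, with 1 peak of 300 bp inside its span of 93448 bp, which is much longer than that of any neural POU gene.

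Partners and regulators of the neural POU factors had MNase peaks about as often as the neural POU genes did. Of 15 such genes, 4 (26.7%) had an MNase peak within 5 kb, where 5.28% of all coding genes did. A sonication peak within 50 kb was found at 0 of the 15, against 7.84% of all coding genes. Isl1, a LIM homeodomain factor that works beside class 4 factors in sensory neurons, had 7 peaks, the widest of 1650 bp. Neurog2, a proneural factor, had 2 of up to 1050 bp. Atoh1, a proneural factor of hair cells and cerebellar granule cells, had 2 of up to 750 bp. Sox2, the neural stem cell factor that pairs with class 3 factors, also had 2 of up to 750 bp, both outside the gene, the nearer at 1195 bp. The 8 reported targets of the factors, among them Nes, the nestin gene, and Egr2, a regulator of myelination, had 0 peaks of either list within 50 kb. With 11.3% and 7.84% of all coding genes having an MNase or a sonication peak in that window, 0 of 8 is near the background.

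Other homeobox families gave a scale for these counts. LIM homeobox genes, a list that shares Isl1 and Isl2 with the one above, had an MNase peak within 5 kb at 4 of 12 (33.3%): besides Isl1, these were Lmx1a with 1 peak of 1.80 kb, Lhx5 with 2 and Lhx8 with 1. Dlx genes had one at 2 of 6 (33.3%), Dlx6 with 6 peaks and Dlx2 with 2. Hox genes, which sit side by side and share peaks, had one at 38 of 39 (97.4%). At 28.6% within 5 kb, the neural POU genes thus had a share like those of the LIM homeobox and Dlx genes. It was below that of the Hox genes, and all of these lay above the 5.28% of all coding genes. In the other windows the shares lay further apart, on lists of only 6 to 12 genes. In the gene, 1 of 7 neural POU, 3 of 12 LIM homeobox and 2 of 6 Dlx genes had an MNase peak. Of all coding genes, 4.13% did. Within 50 kb the counts were 3 of 7, 4 of 12 and 4 of 6, against 11.3% of all coding genes. Dlx1 lies near Dlx2 and Dlx5 near Dlx6, so within 50 kb a peak can count for both genes of a pair. These shares were not tested against each other. Summed over genes, the neural POU genes had 3 MNase peaks within 5 kb over 7 genes, the LIM homeobox genes 11 over 12, of which 7 were at Isl1, and the Dlx genes 8 over 6, of which 6 were at Dlx6.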

How the data were processed

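Libraries were grouped by their titles within each fragmentation into knock-in, wild-type and input (whole cell extract). Bowtie 0.12.9, MACS2, bcl2fastq and the build mm10 are listed, without roles, per the submitters' processing notes; cells of the MNase list name SeqMonk. The authors deposited 3 tables, each with positions in bp: a peak list per experiment, taken as pooled over its libraries, and a list of broad domains whose score, on an unstated scale, was not used. Peaks lie on a grid of 150 bp with a smallest width of 300 bp, so distances carry that step. The part of the controls in the calls is unknown, and no peak was removed for lying in repeated sequence.

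Genes came from a RefSeq table of GRCm38.p6. Of 49997 records, 340 in the assembly gap of the first 3 Mb of a chromosome were left out, Y excepted, and 49603 on the autosomes, X and Y were kept. It gives spans without exons, so exon or intron is not stated; start sites came from the RefSeq promoter table. A peak counted for a gene when at least 1 bp lay in the span or its window. Distances are from the nearest edge of the peak. Python 3.11.15 with pandas 2.3.3 was used, and distances and counts were tested on simulated data: all 200 peaks placed at known distances from genes were recovered. No test was made, since no value per library was analysed here; the planned count test of knock-in against wild-type could not be run. Genes were named by a rule: the 7 genes, list genes with a peak within 5 kb (Hox genes only as a count), and neighbours at a counted peak; Nes, Egr2 and the other neighbours were named besides. Some list genes are not reported here and were left out of the counts of their lists. The genes and lists were chosen with earlier results of these data known. The alternatives tried were peak width, overlap, window, merging of peaks, start sites and the set of background genes.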

Additional observations from a re-analysis of the deposited data

How the results depend on the processing

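Of 43 alternative counts for the neural POU genes, 38 lay within 1.5 times the reported count and 5 did not. Among the 38 is a count of peaks shared between the lists, which was 0 under both rules. The others count neural POU genes with a peak. Some alternatives could not lower a count: merging never takes a gene's peak away, and a stricter rule leaves a count of 0 at 0. The 38 of 43 thus overstates how stable the counts are. Taking the start site alone in place of the gene span, for the 5 genes that have one in the table, left 0 genes with an MNase peak at the site, against 1 in the gene. Of all coding start sites, 0.726% had one. Counts within 5 and 50 kb of the start site did not leave the range of 1.5 times. A window of 1 kb in place of 5 kb left 1 gene in the MNase list, Pou4f1, against 4.56% of all coding genes. A window of 20 kb in place of 5 kb gave 1 gene in the sonication list, Pou3f4, against 4.9% of all coding genes. Limiting the sonication list to peaks wider than 300 bp left 0 genes within 50 kb, since both peaks near Pou3f4 are of the smallest width. Of all coding genes, 3.15% kept a peak there. A window of 100 kb gave 2 genes in that list in place of 1, while the share of all coding genes rose from 7.84% to 12.4%. In the MNase list, the wider peaks left 1 of the 4 at Pou3f3 and 0 at Pou3f2. No paired analysis was possible because the peak lists carry no value per library, and leaving out a replicate could not be run for the same reason. Whether a peak holds in each knock-in library, and in neither wild-type library, cannot be read from these lists.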
